A study of Homo sapiens with 4 samples.

Results

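The 10 transcription factors described here, GATA1, GATA2, KLF1, TAL1, NFE2, FLI1, RUNX1, ZFPM1, GFI1B and LMO2, direct the erythroid and megakaryocyte branches of blood formation. They were chosen by name, and every probe with 1 of these names was taken, which gave 14 of the 58185 probes analysed and 10 of the 43311 gene names on the array. RUNX1 had 5 probes and each of the other members had 1. Gene expression had been measured on 4 one-colour arrays, 1 each for MDS-L cells with vehicle, MDS-L cells with 5-azacytidine (AZA), MDS-L/CDA cells with vehicle and MDS-L/CDA cells with AZA. MDS-L cells descend from the marrow of a patient with a myelodysplastic syndrome (MDS), in which blood cells mature abnormally. MDS-L/CDA is the same line after transduction of CDA, whose product deaminates cytidine analogues, and the study used it as its AZA-resistant counterpart. AZA is a cytidine analogue that is built into nucleic acids and traps DNA methyltransferases. The vehicle was 0.1% DMSO, AZA was given at 1 μM, and exposure lasted 72 h. All cultures had RPMI1640 medium with 10% FBS, 50 μM 2-mercaptoethanol and, per the labels, 20 ng/mL IL-3, for which the methods give another amount. The sample titles write the dose in mM, whereas other fields and the methods give μM. A treatment field of the MDS-L AZA sample and of the MDS-L/CDA vehicle sample names the opposite treatment to the title, description and source name, which were followed. The comparisons ask how each factor differed with AZA in the parent line and in the line made resistant to it.

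GATA1 and GATA2 are zinc finger proteins that bind the letters GATA. GATA2 acts early, in stem and progenitor cells and in mast cells, and GATA1 takes over many of the same sites as erythroid cells, megakaryocytes, mast cells and eosinophils mature. GATA1 works with TAL1, LMO2 and LDB1 in a single DNA-bound complex and with its cofactor FOG1, the product of ZFPM1. Demethylating drugs such as AZA act on the same progenitors that use this network.

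Each condition had 1 array, so no test was possible, there was no replicate check of any difference, and every ratio below describes these 4 RNA samples. Signals are given relative to the 75th percentile of all gene probes of the array, so a signal of 1 is the 75th percentile, and a probe's signal is compared only with its own signal on other arrays. The only error available was technical, the SD between the spots of probes printed several times on an array, taken from probes of similar brightness. It is given as the spot SD and covers neither hybridization nor culture. The array had 300 probes with 10 spots, and between 263 and 274 of them carried the scanner's flag for signal well above background (called detected here, and dim without it), with a median spot SD of 0.12 to 0.20 on the log2 scale. The 75th percentile was 52.5, 52.9, 40.8 and 37.3 intensity units in MDS-L vehicle, MDS-L AZA, MDS-L/CDA vehicle and MDS-L/CDA AZA, and 32.6% to 36.5% of probes were well above background. No spot was saturated, all arrays lay on 1 slide, and the RNA integrity number was above 9.8. All 14 member probes were well above background on all 4 arrays. CDA checks the labels of the transduced line, but its 1 probe stayed dim on each of the arrays, without the flag, at 5.53, 4.99, 4.48 and 5.42 intensity units in the same order, so it separated no lines, and whether the probe lies in the transduced sequence is not given in the sources used here.

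Where the probes lie decides which transcripts they read, so the 60-base probes known to lie in coding sequence are shown. In hg19, the build of the array files, the GATA1 probe spans X:48650853-48651615 on the plus strand, 763 bases of genome for 60 bases of probe, so that it crosses a splice junction of GATA1. The ZFPM1 probe at 16:88601304-88601363 reads the coding part of FOG1. For RUNX1, the probe at 21:36231787-36231846 lies in the part that encodes the runt domain, which binds DNA, and the probe at 21:36171601-36171660 reads a coding exon used by the long forms of the protein.
GATA1: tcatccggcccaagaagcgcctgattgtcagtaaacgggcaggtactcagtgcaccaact
ZFPM1: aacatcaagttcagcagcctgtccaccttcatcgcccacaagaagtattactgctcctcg
RUNX1 runt domain probe: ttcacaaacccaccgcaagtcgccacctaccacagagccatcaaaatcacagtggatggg
RUNX1 long form coding probe: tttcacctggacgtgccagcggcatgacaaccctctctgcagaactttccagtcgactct

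Because GATA factors bind their own genes and those of their partners, the promoters of the members were searched for the letters GATAA and GATAG on both strands. RefSeq windows on GRCh38.p14, from 250 bases before to 50 bases after the start of transcription, were at hand for 7 of the 10 members, and NFE2, FLI1 and LMO2 had none. GATAA or GATAG stood in 3 of these 7 windows, those of KLF1, TAL1 and GFI1B, and in 35.4% of all 35116 windows. The 250 bases before the start are shown for GATA1, which had the largest AZA ratio of the members, for TAL1, which was above a ratio of 2 in MDS-L/CDA, and for KLF1, which lay below 1 in both lines. Capitals mark GATAA or GATAG, here always on the opposite strand and so read as TTATC or CTATC.
GATA1, chrX:48786340-48786589, plus strand: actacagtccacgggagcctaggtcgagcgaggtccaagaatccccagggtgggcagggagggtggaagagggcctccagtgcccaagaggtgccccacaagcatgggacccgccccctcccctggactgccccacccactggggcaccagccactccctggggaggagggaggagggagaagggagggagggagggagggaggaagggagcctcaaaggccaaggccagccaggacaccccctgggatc
TAL1, chr1:47232336-47232585, minus strand: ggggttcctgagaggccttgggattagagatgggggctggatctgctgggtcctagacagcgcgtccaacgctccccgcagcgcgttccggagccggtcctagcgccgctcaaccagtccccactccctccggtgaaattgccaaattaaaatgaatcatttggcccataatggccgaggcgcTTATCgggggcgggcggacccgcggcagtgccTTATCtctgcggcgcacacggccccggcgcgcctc
KLF1, chr19:12887202-12887451, minus strand: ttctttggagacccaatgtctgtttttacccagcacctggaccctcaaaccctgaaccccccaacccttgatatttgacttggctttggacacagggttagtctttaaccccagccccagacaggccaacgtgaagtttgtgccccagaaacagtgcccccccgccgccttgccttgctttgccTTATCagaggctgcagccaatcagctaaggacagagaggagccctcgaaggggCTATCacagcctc

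The matches of TAL1 began 67 and 35 bases before the start, those of KLF1 66 and 13 bases before it, and the single match of GFI1B 5 bases after it. Members on both sides of a ratio of 1 therefore held these letters, and GATA1 and GATA2 held none in their windows. Of other letters searched on both strands, CACCC, bound by KLF factors, stood in 4 of the 7 windows against 59.9% of all windows. AGGAAG, an ETS-type sequence, also stood in 4, against 33.6%, and the E-box CANNTG in 3, against 68.7%. The RUNX letters TGTGGT and the NFE2 letters TGAGTCA were in none of the 7, against 13.1% and 4.95% of all windows. DNA methylation sits at CpG sites, and their number in the 300-base window differed widely between members. GATA1 had 7, KLF1 6 and GFI1B 6, below the median of 14 over all windows, whereas GATA2 had 29, TAL1 30, RUNX1 40 and ZFPM1 47, above the upper quartile of 28. GATA1 and GATA2 thus lay on opposite sides of that median. These are letters in a window and no measure of binding or methylation.

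AZA-treated MDS-L cells had at least 2-fold higher signals of GATA1, GATA2 and NFE2, and of no member was the signal at least 2-fold lower. Over all 22261 probes measured in this pair, 6.54% were at least 2-fold higher and 6.15% at least 2-fold lower. The median log2 ratio of the 10 members was 0.52, against -0.12 for all probes, with 7 members above a ratio of 1 and 3 below it. In MDS-L/CDA, GATA1, GATA2 and TAL1 were at least 2-fold higher and again no member was at least 2-fold lower, where 2.48% and 3.20% of 19871 probes were. The median of the members was 0.50 there, against 0.01 for all probes, with 6 above and 4 below a ratio of 1. At the lower threshold of 1.5, TAL1 and GFI1B joined the higher members in MDS-L, which made 5, and KLF1 and LMO2 were lower, where 14.0% and 18.4% of all probes passed. In MDS-L/CDA, GFI1B joined, which made 4, and none was lower, where 9.49% and 10.0% did. Median scaling of the arrays shifted all probes of the MDS-L pair by -0.54 on the log2 scale. Under it GATA2 and NFE2 fell short of a ratio of 2 in MDS-L, and KLF1 and LMO2 passed 2-fold lower, where 668 of the 22261 probes were at least 2-fold higher and 25.5% lower. With normexp background correction, whose offset damps ratios of low signals, no member reached a ratio of 2 in MDS-L/CDA, where 0.382% of all probes did.

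**Figure D1:**
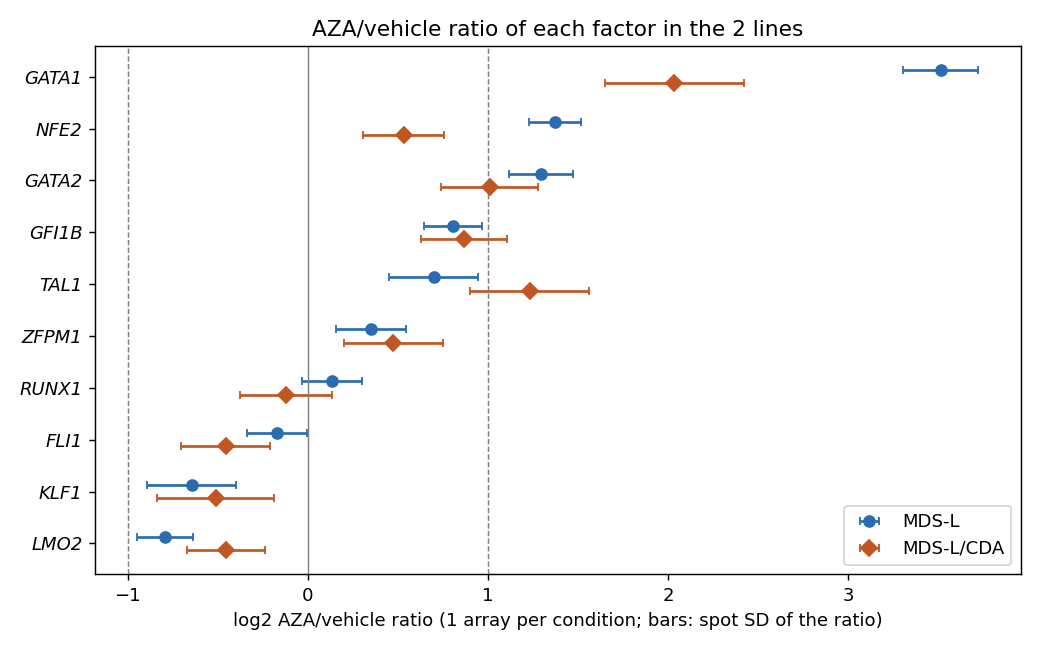
Log2 ratio of AZA over vehicle for each of the 10 factors (RUNX1 by its brightest probe) in MDS-L (blue circles) and MDS-L/CDA (orange diamonds), 1 array per condition, with bars for the spot SD of the ratio and dashed lines at a ratio of 2 in either direction. GATA1 stands farthest to the right in both lines, at 3.51 and 2.04, and KLF1 and LMO2 lie left of 0 in both.

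Among the GATA factors, GATA1 is the one required for erythroid and megakaryocyte maturation. Its signal was 1.26 in MDS-L with vehicle, 14.4 in MDS-L with AZA, 0.507 in MDS-L/CDA with vehicle and 2.08 in MDS-L/CDA with AZA. The MDS-L AZA array was thus far above the other 3, and MDS-L/CDA with AZA was above both vehicle arrays. The AZA ratio was 11.4-fold in MDS-L, a log2 ratio of 3.51 with a spot SD of 0.21, and 4.10-fold in MDS-L/CDA, 2.04 with a spot SD of 0.39. Of 19448 probes detected in MDS-L with vehicle and with AZA, 26 had a higher ratio, and of 18080 detected in both MDS-L/CDA cultures, 21 had. The spot SD of the low but detected MDS-L/CDA vehicle signal rests on only 2 probes of similar brightness. Normexp correction lowered the MDS-L/CDA log2 ratio to 0.88, the lowest among the alternatives run. In bulk RNA, fewer cells of a type and less RNA per cell cannot be told apart.

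GATA2, the early GATA factor of stem and progenitor cells and of mast cells, had a signal of 13.3 and 32.7 in MDS-L with vehicle and AZA, and of 13.1 and 26.4 in MDS-L/CDA. The vehicle signals of the lines were almost equal, and both AZA arrays were above both vehicle arrays. The ratio was 2.46-fold in MDS-L and 2.01-fold in MDS-L/CDA, with log2 ratios of 1.30 and 1.01 and spot SDs of 0.18 and 0.27, so the MDS-L/CDA value lay just inside a ratio of 2. It fell short of it under median scaling, no scaling and normexp, at log2 ratios of 0.95, 0.88 and 0.91. On the strand opposite to GATA2 lies GATA2-AS1, a noncoding RNA, which was picked after the names on the array had been seen. Of its 4 probes, the 1 at 3:128221988 had AZA ratios of 4.45 in MDS-L and 2.06 in MDS-L/CDA, and that at 3:128208674 had 2.59 and 1.76. The probe at 3:128219146 stood at 1.76 and 0.70, higher with AZA in MDS-L and lower in MDS-L/CDA, and the remaining probe was dim on all 4 arrays. The array's probes are stranded, but the probes of this RNA did not move as one.

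ZFPM1 encodes FOG1, the cofactor that GATA1 needs at many of its targets. Its signal was 9.34 and 11.9 in MDS-L and 10.5 and 14.6 in MDS-L/CDA, with vehicle and AZA. The ratios of 1.28 and 1.39, log2 0.35 and 0.48 with spot SDs of 0.19 and 0.28, were within 2 spot SDs of no difference, and the MDS-L direction turned under median scaling, at -0.19. GFI1B, a zinc finger repressor that restrains proliferation in erythroid cells and megakaryocytes, stood at 28.1 and 49.1 in MDS-L and at 40.1 and 73.2 in MDS-L/CDA. Both AZA signals were above both vehicle signals, and the ratios of 1.75 and 1.83 were close in the lines, with log2 ratios of 0.81 and 0.87 and spot SDs of 0.16 and 0.24. Quantile normalization, the authors' value table among them, put the MDS-L ratio of GFI1B above 2. Median scaling lowered its MDS-L log2 ratio to 0.27, and the MDS-L minus MDS-L/CDA difference of log2 ratios was then -0.55.

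**Figure D2:**
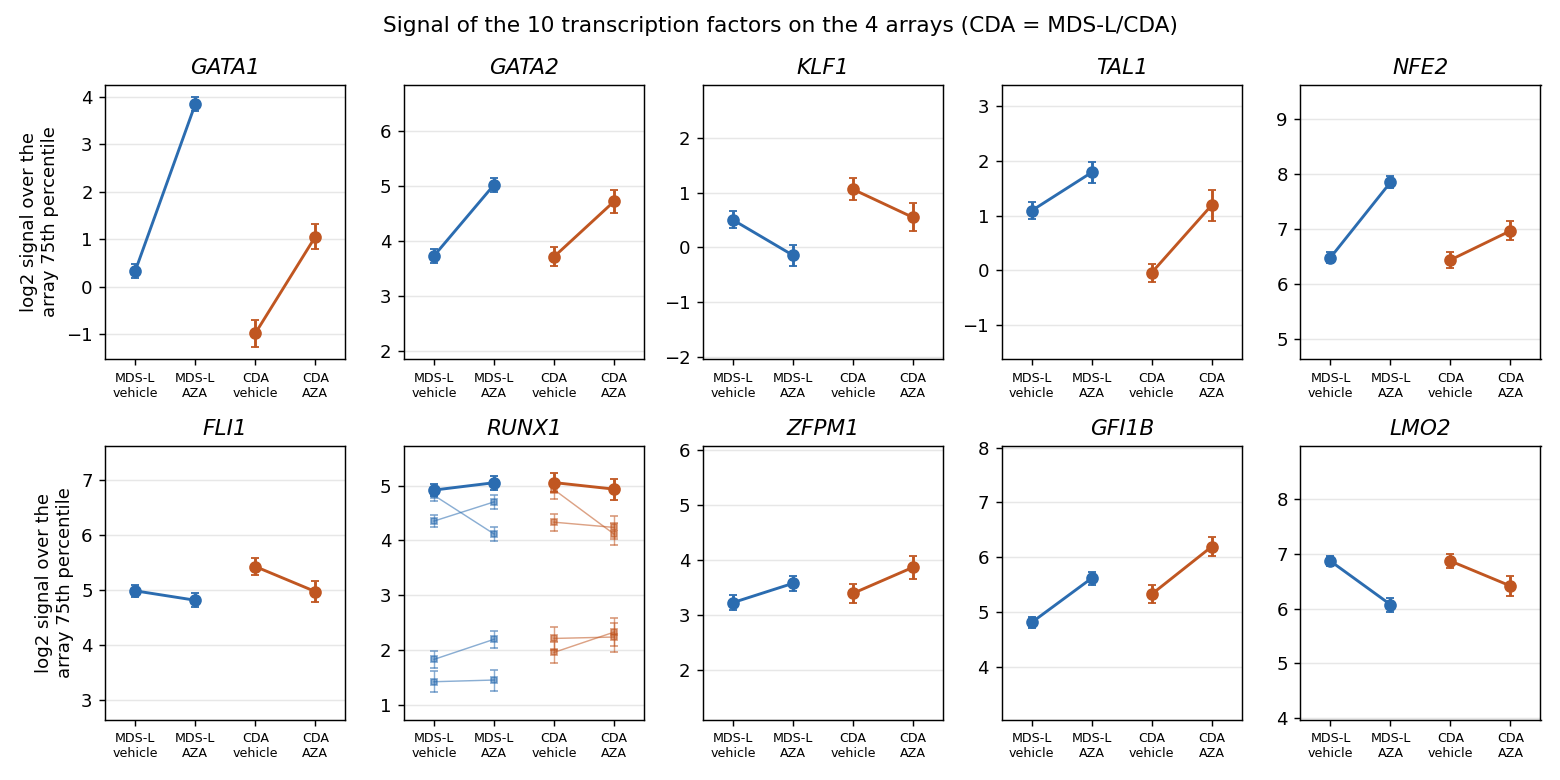
Log2 signal of each factor relative to the 75th percentile of the array, on the 4 arrays (MDS-L in blue, MDS-L/CDA in orange, lines join vehicle and AZA), with bars for the spot SD. All panels but that of GATA1 span the same number of log2 units, and the GATA1 panel spans more. Thin lines with squares are the 4 dimmer RUNX1 probes. GATA1 has the widest spread between arrays, from 0.507 to 14.4 in units of the 75th percentile, and the brightest RUNX1 probe, from 30.2 to 33.2, has the narrowest among the probes drawn with thick lines.

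TAL1 and LMO2 sit in the same DNA-bound complex with GATA1, TAL1 as the protein that binds DNA with an E protein and LMO2 as the bridge that binds no DNA itself. TAL1 had a signal of 2.13 and 3.45 in MDS-L and of 0.971 and 2.28 in MDS-L/CDA, with vehicle and AZA. Its lowest signal was that of MDS-L/CDA with vehicle, and AZA brought the MDS-L/CDA signal to about that of untreated MDS-L. The ratio was 1.62 in MDS-L and 2.35 in MDS-L/CDA, with log2 ratios of 0.70 and 1.23 and spot SDs of 0.25 and 0.33. On the MDS-L/CDA vehicle array the spot SD rests on only 4 probes of similar brightness. In MDS-L/CDA, 155 of the 18080 detected probes had a higher ratio than TAL1.

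LMO2 went the other way. Its signal was 117 in MDS-L with vehicle and 67.4 with AZA, and 117 in MDS-L/CDA with vehicle and 85.3 with AZA. The AZA ratio was 0.58 in MDS-L and 0.73 in MDS-L/CDA, with log2 ratios of -0.79 and -0.46 and spot SDs of 0.15 and 0.22. The vehicle arrays matched and both AZA arrays were below them. The LMO2 probe was itself printed 10 times on each array, which gave its own technical error. In intensity units its spots ran from 5598 to 6580 in MDS-L with vehicle and from 3051 to 4047 with AZA, after 1 flagged spot at 479 was left out. In MDS-L/CDA they ran from 3776 to 5395 with vehicle and from 2944 to 3357 with AZA, after 1 flagged spot at 2820 was left out. The spots with vehicle and with AZA did not overlap in either line, on the unscaled signals. How many other probes printed 10 times were likewise apart was not counted, and spots cover neither hybridization nor culture.

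KLF1, the erythroid Krüppel-like factor that switches on the adult beta-globin gene, was lower with AZA. Its signal was 1.42 and 0.906 in MDS-L and 2.09 and 1.46 in MDS-L/CDA, with vehicle and AZA. The ratios were 0.64 and 0.70, log2 -0.65 and -0.51, with spot SDs of 0.25 and 0.32, so that the MDS-L/CDA ratio was within 2 spot SDs of no difference. NFE2, the bZIP factor that with a small MAF protein drives late megakaryocyte and globin genes, was higher. Its signal was 89.2 and 231 in MDS-L and 86.7 and 125 in MDS-L/CDA. The vehicle signals were close and the MDS-L AZA signal stood far above the rest. The ratio was 2.59 in MDS-L and 1.45 in MDS-L/CDA, with log2 ratios of 1.37 and 0.53 and spot SDs of 0.15 and 0.22.

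FLI1 is the ETS factor that favours the megakaryocyte fate over the erythroid one, which KLF1 favours. Its signal was 31.7 and 28.1 in MDS-L and 43.1 and 31.4 in MDS-L/CDA, with vehicle and AZA. The ratio of 0.89 in MDS-L, log2 -0.17 with a spot SD of 0.17, changed sign under quantile normalization, in the authors' value table and when the 75th percentile was taken over detected probes only, reaching 0.06. In MDS-L/CDA it was 0.73, log2 -0.46 with a spot SD of 0.25, and lower under every alternative run.

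RUNX1, which is needed for blood stem cells to form and later for megakaryocyte maturation, was read at 5 places along its transcript. The brightest probe, at 21:36160391-36160450 near the 3′ end, had signals of 30.2 and 33.2 in MDS-L and 33.2 and 30.6 in MDS-L/CDA, with log2 ratios of 0.13 and -0.12. The first of these turned to -0.41 under median scaling, and no ratio of this probe exceeded 1 spot SD. The neighbouring probe at 21:36164083-36164142 differed from it. Its signals were 28.2 and 17.3 in MDS-L and 30.4 and 17.3 in MDS-L/CDA, with ratios of 0.61 and 0.57. With spot SDs of 0.17 and 0.26 on the log2 scale, these 2 ratios were lower by more than the spread between spots, and the probes of RUNX1 disagreed. The array design places both probes in the same transcript of the long form.

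The probe at 21:36193583-36193642 is listed for transcript variant 3, which encodes a short form of RUNX1 without the C-terminal transactivating part. Its signals were 20.4 and 26.0 in MDS-L and 20.1 and 18.8 in MDS-L/CDA, ratios of 1.27 and 0.94. The runt domain probe, shared by the forms, had 3.55 and 4.58 in MDS-L and 4.63 and 4.71 in MDS-L/CDA, ratios of 1.29 and 1.02. The long form coding probe had 2.68 and 2.74 in MDS-L and 3.88 and 5.02 in MDS-L/CDA, ratios of 1.02 and 1.29. None of the 5 probes reached a ratio of 2 in either direction, and which of them best reflects the level of RUNX1 mRNA was not tested. RUNX1-IT1, a transcript from an intron of RUNX1 that was picked after its name was seen, had ratios of 2.08 in MDS-L and 0.72 in MDS-L/CDA.

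**Figure D3:**
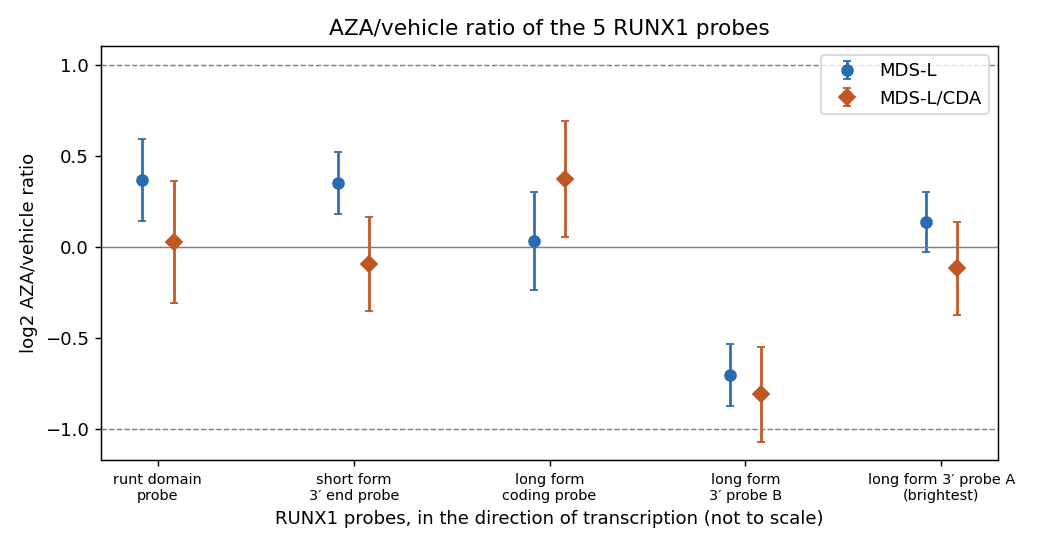
Log2 ratio of AZA over vehicle for the 5 RUNX1 probes, ordered along the transcript from left to right and not to scale, in MDS-L (blue circles) and MDS-L/CDA (orange diamonds), with bars for the spot SD and dashed lines at a ratio of 2. Only the probe at 36164083 lies below 0 by more than 2 spot SDs in both lines, with ratios of 0.61 and 0.57, while the other 4 lie between ratios of 0.92 and 1.29.

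The lines also differed in these factors before AZA. With vehicle, GATA1 and TAL1 were at least 2-fold lower in MDS-L/CDA than in MDS-L, at ratios of 0.40 and 0.46, and no member was at least 2-fold higher, where 2.71% of 20778 probes were lower and 2.08% higher. On the log2 scale the difference was -1.32 for GATA1 and -1.13 for TAL1, with spot SDs of 0.32 and 0.23. On the MDS-L/CDA side these SDs rest on only 2 and 4 probes of similar brightness. Under normexp correction neither difference reached a ratio of 2. The median over the 10 members was 0.07, against 0.06 for all probes. No further member passed a ratio of 1.5, where 8.54% of probes were higher and 8.01% lower. KLF1, GFI1B and FLI1 had ratios of 1.47, 1.43 and 1.36, of which those of GFI1B and FLI1 dropped below 1 under median scaling. GATA2, NFE2, LMO2, ZFPM1 and RUNX1 lay between 0.97 and 1.12, and all of these but NFE2 changed direction under at least 1 scaling.

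With AZA in both lines, GATA1 was the only member at least 2-fold apart, at a ratio of 0.14 in MDS-L/CDA against MDS-L, log2 -2.79 with a spot SD of 0.30. Over all 21668 probes, 5.10% were at least 2-fold lower and 5.62% at least 2-fold higher. NFE2 followed at 0.54, log2 -0.88, and passed 2-fold lower under quantile normalization and 4 other alternatives. TAL1 stood at 0.66. At the threshold of 1.5, these 3 were lower and KLF1 was higher, where 11.0% and 20.5% of probes passed. KLF1 at 1.61 and GFI1B at 1.49 were higher in MDS-L/CDA, and GATA2, FLI1, RUNX1, ZFPM1 and LMO2 lay between 0.81 and 1.27, of which FLI1, ZFPM1 and LMO2 changed direction under at least 1 scaling. The comparisons of lines and of treatments share these 4 arrays, so they are not independent of each other.

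The AZA ratio of GATA1 was 2.79 times as high in MDS-L as in MDS-L/CDA, a difference of log2 ratios of 1.48 with a spot SD of 0.44. It was the only member past a factor of 2, where 5.13% of 19601 probes had the MDS-L ratio at least 2-fold above and 6.96% at least 2-fold below that of MDS-L/CDA. Under median scaling the difference for GATA1 was 0.99, just short of it. NFE2 followed with a difference of 0.84, past a factor of 1.5, where 12.1% of probes were above and 19.9% below that factor. TAL1, at -0.53, had the lower ratio in MDS-L. With 1 array per condition, none of these differences between the lines was tested.

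GATA1's pattern over the 4 arrays was set against 17809 probes well above background on all of them, by the root mean square distance between log2 signals centred on each probe's own mean. The nearest was HDC, histidine decarboxylase, which makes histamine in mast cells and basophils, at a distance of 0.19. Its signals were 14.5 and 137 in MDS-L and 6.64 and 26.8 in MDS-L/CDA, with vehicle and AZA. TP53INP1, a p53-induced stress gene, followed at 0.31, with signals of 4.23 and 31.4 and of 1.22 and 7.57. Then came HIST1H4H, a histone H4 gene, at 0.41, SNAR-G1, a small noncoding RNA of a family with near-identical copies, at 0.46, and HBBP1, a pseudogene of the beta-globin cluster, at 0.46. All 5 had their highest signal in MDS-L with AZA and their lowest in MDS-L/CDA with vehicle, as GATA1 did. With 4 points per probe, such a likeness is a description only.

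**Figure D4:**
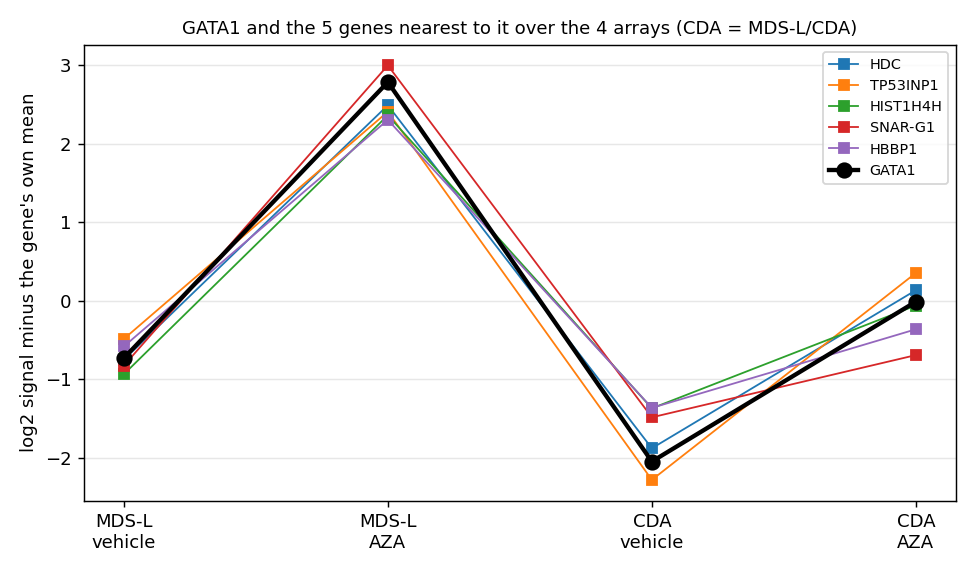
Log2 signal of GATA1 (black) and of the 5 genes nearest to it in pattern on the 4 arrays, each minus its own mean. All 6 lines peak in MDS-L with AZA and are lowest in MDS-L/CDA with vehicle, and HDC runs closest to GATA1, at a root mean square distance of 0.19.

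Lists of related genes, chosen with earlier results of these data known, show what stood beside the members. Of 24 cofactors and dimer partners, all were measured, and their median log2 ratio was -0.11 for AZA in MDS-L and 0.08 in MDS-L/CDA, close to that of all probes. MAFF, a small MAF protein that can pair with NFE2, was 2.63-fold higher in MDS-L and at least 2.96-fold higher in MDS-L/CDA, and no partner was at least 2-fold lower in MDS-L. In MDS-L/CDA the histone acetyltransferase CREBBP, at a ratio of 0.33, was lower. Both rest on low signals. MAFF with vehicle in MDS-L had 14.4 intensity units, near that array's lowest detected signal of 9.98. CREBBP with AZA in MDS-L/CDA had 13.5, near that array's lowest of 11.0. The other small MAF genes on the list, MAFG and MAFK, were detected on all 4 arrays. MAFG had ratios of 1.30 in MDS-L and 1.06 in MDS-L/CDA, and MAFK was lower, at 0.63 and 0.76. LDB1, which joins the GATA1, TAL1 and LMO2 complex, had signals of 2.44 and 2.58 in MDS-L and 2.65 and 3.59 in MDS-L/CDA, ratios of 1.06 and 1.35.

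Of 31 relatives from the members' own families, 20 were measured in MDS-L. LMO4, a relative of LMO2, and KLF2 were at least 2-fold higher, at ratios of 6.08 and 5.51, and ETS2, KLF3 and GFI1 at least 2-fold lower, at 0.27, 0.28 and 0.50. LMO4 had signals of 39.7 and 241 in MDS-L and 39.6 and 59.9 in MDS-L/CDA, so it was high in MDS-L with AZA. GFI1, the relative of GFI1B that acts in granulocytes and stem cells, stood at 18.0 and 8.94 in MDS-L and 11.5 and 9.40 in MDS-L/CDA. In MDS-L/CDA, 19 relatives were measured, KLF2 was higher at 3.07 and the ETS repressor ETV6 lower at 0.48. Of the other GATA genes, GATA3 and GATA5 were dim on all 4 arrays.

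Factors of other blood lineages were mostly lower or level. In MDS-L, 12 of 15 were measured, and their median log2 ratio was -0.27. The mast cell and melanocyte factor MITF was at least 4.21-fold higher, being well above background with AZA in MDS-L alone, and BCL11A, a repressor of fetal globin genes, was lower at a ratio of 0.40. SPI1, which encodes PU.1, the myeloid factor that opposes GATA1, had signals of 69.0 and 53.9 in MDS-L and 76.8 and 74.2 in MDS-L/CDA, with ratios of 0.78 and 0.97. CEBPA, a granulocyte factor, had ratios of 0.60 and 0.73. Its relatives on the list were not lower, CEBPB at 1.78 in MDS-L and 1.01 in MDS-L/CDA and CEBPE at 1.26 and 1.16. In MDS-L/CDA, 10 were measured, and 0 passed a ratio of 2 in either direction.

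Among 33 erythroid genes, 31 were on the array and 22 were measured in MDS-L, where 6 were at least 2-fold higher and 1, EPB42, lower. The median log2 ratio was 0.27, against -0.12 for all probes. The globins led, HBG1 at least 49.9-fold, HBA2 at least 10.5-fold and HBB at least 4.06-fold higher, each well above background in MDS-L with AZA only. HBG1 and HBA2 have near-identical neighbours, HBG2 and HBA1, whose RNA these probes may also read. HBD, the delta-globin gene, was measured on all arrays, at 8.27 and 59.2 in MDS-L and 5.53 and 22.2 in MDS-L/CDA, and was the only erythroid gene at least 2-fold higher in MDS-L/CDA, at 4.02. ANK1, an anchor of the red cell membrane skeleton, was at least 5.89-fold higher in MDS-L, and ALAD, of haem synthesis, was lower in MDS-L/CDA at 0.44. The ALAD signal with AZA there was 14.7 intensity units, near that array's lowest detected signal of 11.0. Other defining red cell genes stayed dark: ALAS2, AHSP, HBE1, GYPB, KEL, BCAM, XK and HEMGN were below the detection flag throughout. The median over the 14 genes measured in MDS-L/CDA was 0.03.

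Of 20 megakaryocyte genes, 10 were measured in MDS-L and 6 of them were at least 2-fold higher, with none at least 2-fold lower and a median log2 ratio of 2.05. PPBP, a platelet chemokine, had a log2 ratio of 3.70, and VWF, the platelet adhesion protein, was 11.5-fold higher. GP1BB and GP9, parts of the platelet receptor for VWF, were 9.33-fold and at least 8.18-fold higher. In MDS-L/CDA, 7 were measured and 2 were at least 2-fold higher, VWF at 4.78 and PPBP at least 3.17, with a median of 0.76. ITGA2B, the platelet integrin that marks the lineage, had log2 ratios of 0.58 and 0.70. ITGB3, GP1BA, GP5, PF4, TUBB1, SELP, TREML1, MMRN1 and CD9 had no detected signal on any array. The summed signal of the list was 29.2 and 101 in MDS-L and 40.0 and 58.3 in MDS-L/CDA, with vehicle and AZA. Such sums, here and for the lists below, add unlike probes and follow the brightest of them.

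**Figure D5:**
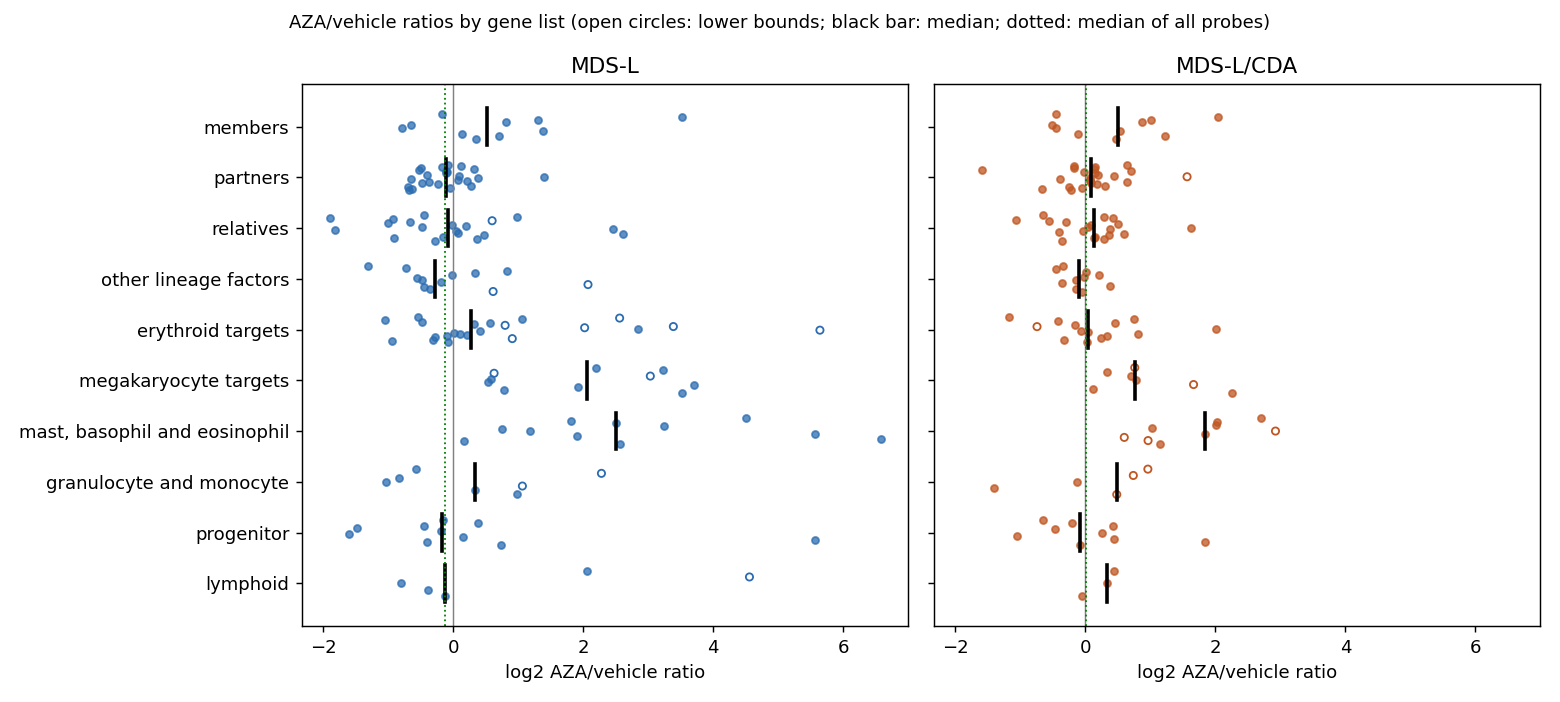
Log2 ratio of AZA over vehicle for each measured gene of the 10 lists in MDS-L (left) and MDS-L/CDA (right); open circles are lower bounds, black bars list medians and the dotted line the median of all probes. The megakaryocyte and the mast cell, basophil and eosinophil lists lie farthest to the right in both panels, with medians of 2.05 and 2.51 in MDS-L and 0.76 and 1.84 in MDS-L/CDA.

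Genes of mast cells, basophils and eosinophils, which also depend on GATA1 and GATA2, stood out beside these factors. Of 17, 15 were on the array and 11 were measured in MDS-L, where 9 were at least 2-fold higher and none at least 2-fold lower, with a median log2 ratio of 2.51. PRG2, an eosinophil granule protein, was 95.6-fold higher, the stem cell factor receptor KIT 47.3-fold, and CLC, the Charcot-Leyden crystal protein, 22.7-fold. The PRG2 signal with vehicle was 14.7 intensity units, near that array's lowest detected signal of 9.98, so the size of its ratio is uncertain. In MDS-L/CDA, 9 were measured and 7 were at least 2-fold higher, with a median of 1.84. They included IL1RL1, the receptor of IL-33, at least 7.59-fold, CPA3, a mast cell protease, 6.54-fold, FCER1A, a chain of the IgE receptor, 4.07-fold and HDC 4.03-fold. With vehicle, 7 of the 11 measured were at least 2-fold lower in MDS-L/CDA than in MDS-L, as GATA1 was. The summed signal of the list was 137 and 468 in MDS-L and 99.9 and 243 in MDS-L/CDA, and CMA1, PRG3, EPX and ENPP3 were dim throughout. The part of such cells in the GATA1 and GATA2 values was not tested.

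Markers of other cells shifted less. Of 11 progenitor markers, 10 were well above background in MDS-L, and PROM1 was dim on every array. CD34 had signals of 11.4 and 8.30 in MDS-L and 11.4 and 15.4 in MDS-L/CDA, CD38 had AZA ratios of 0.36 and 0.73 and HLA-DRA of 0.33 and 0.48, while KIT, which the list shares with that of mast cells, was the 1 marker at least 2-fold higher in each line. The list's median was -0.17 in MDS-L and -0.08 in MDS-L/CDA. Its summed signal lay between 235 and 245, but rises and falls of single genes offset each other in it. In MDS-L, with vehicle and AZA, KIT stood at 0.503 and 23.8 and CD38 at 23.5 and 8.43. Of 14 granulocyte and monocyte genes, 7 were measured in MDS-L, where CSF1R was at least 4.86-fold and ITGAM at least 2.09-fold higher and CTSG lower at 0.49. In MDS-L/CDA, 5 were measured and CTSG, at 0.38, was the 1 past a ratio of 2, and MPO, ELANE, AZU1, S100A9 and LTF were dim throughout. The summed signal of that list was 20.0 and 12.3 in MDS-L and 7.0 and 5.0 in MDS-L/CDA. Of 7 lymphoid genes, 5 were measured in MDS-L, with CD3D at least 23.5-fold higher, and none passed a ratio of 2 in MDS-L/CDA. The summed signal of the lymphoid list was 31.6 and 27.1 in MDS-L and 37.4 and 42.7 in MDS-L/CDA.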

How the data were processed

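RNA of 4 cultures was hybridized to 4 one-colour (Cy3) Agilent arrays, 1 per condition. The authors deposited scanner output from Agilent Feature Extraction 10.7.1.1 (per the labels and file headers), in which each spot's intensity is on a linear scale, background-subtracted and not normalized between arrays. They also deposited a table of intensity for 51680 probes whose sorted columns lay within 0.04 of each other in log2, as after quantile normalization, and which correlated at 0.999 or more with the scanner values on the log2 scale. No scale or direction was left unknown, and neither kind of file held fold changes or p-values.

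Control spots and outlier flags were left out, which removed 16 of 58201 probes. Log2 processed signals were averaged per probe and the array's 75th percentile was subtracted. A probe counted as measured in a pair if well above background on at least 1 array. For a dim signal the array's detection floor, the lowest flagged signal (9.98 to 11.1 intensity units), was used unless its own value was higher, and the ratio is given as "at least". No ratio was given where both were dim. Genes with several probes were taken by the brightest one. With no replicates, the number of arrays limits precision.

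The members and lists were chosen with earlier results of these data known. Genes named besides the members were, per list, up to 4 with the largest AZA ratio past 2 in each line, SPI1, CEBPA, GFI1, LDB1, KIT and CD34, and the 5 genes nearest to GATA1 in pattern. HBB, EPB42, ITGA2B, MAFG, MAFK, CEBPB, CEBPE, GATA2-AS1, RUNX1-IT1, CDA and genes named as below background were picked after values or names were seen. The array files give probe positions on hg19, without exon annotation, and symbols absent from the array, HBA1, HBG2, TPSB2, LYZ, RNASE3 and FCGR3B, were not used. Some list genes are not reported here by name.

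Alternatives were quantile, median or no scaling, a 75th percentile over detected probes, normexp on the mean and background intensity with an offset of 50, the authors' value table, 2 other filters, the median over probes and a ratio of 1.5. Scaling to 7 spike-in probes was added after the data had been seen. The calculation was tested on simulated arrays. Software was R 4.3.3 with limma 3.58.1 (normexp) and Python 3.11.15 with pandas 2.3.3, numpy 2.4.6, matplotlib 3.10.9 and scipy 1.17.1.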

Additional observations from a re-analysis of the deposited data

Results flagged for a closer look

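Among the members' probes, the noncoding neighbours and the list genes named by the rule, the values above a ratio of 1 with AZA in one line and below it in the other are given here, as the MDS-L minus the MDS-L/CDA log2 ratio. Each rests on 1 array per condition, and no difference between the lines was tested. Among RUNX1 probes, the brightest at 36160391 differed by 0.25 and the short form probe at 36193583 by 0.44. The first of these is within the spot SD of 0.30 for that difference. The noncoding neighbours differed by 1.32 for GATA2-AS1 at 128219146 and by 1.53 for RUNX1-IT1 at 36410776, both higher with AZA in MDS-L. In the opposite direction, ETS2 differed by -2.33, KLF3 by -2.21 and CD34 by -0.89. ETS2 and KLF3 were also lower in MDS-L/CDA than in MDS-L with vehicle, at ratios of 0.27 and 0.26.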

How the results depend on the processing

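No paired analysis was possible because each condition had 1 array, and no array could be left out. No called member reversed its direction under any alternative run. Of the counts of members past the threshold, 91 stayed within 1.5 times the value given and 19 moved. The 91 include counts of 0 that stayed 0 and counts that could not move. The 2 other filters could change no member, as all 14 member probes were detected on all 4 arrays. The median over probes could change only RUNX1. Under quantile normalization, in the authors' value table and with the 75th percentile over detected probes, 2 members were lower in MDS-L/CDA with AZA and 2 had the higher AZA ratio in MDS-L, where 5.82%, 5.87% and 8.02% of all probes were lower and 5.41%, 5.38% and 7.14% had the higher ratio. Under median scaling, 1 member was higher and 2 were lower with AZA in MDS-L, where 668 of 22261 probes and 25.5% of them were, and for the difference between the lines 0 were higher and 1 was lower, where 2.00% and 23.7% were. With no scaling, 3 were lower in MDS-L/CDA with AZA, where 13.2% of probes were. With normexp, 0 were higher with AZA in MDS-L/CDA, 0 were lower in MDS-L/CDA with vehicle and 2 with AZA, where 0.382%, 1.44% and 2.37% of probes were. At a ratio of 1.5, 5 were higher and 2 lower with AZA in MDS-L, where 14.0% and 18.4% of probes were. At that ratio 1 member was higher and 3 were lower in MDS-L/CDA with AZA, where 20.5% and 11.0% of probes were, and 2 had the higher AZA ratio in MDS-L, where 12.1% were.

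Scaling also moved all probes. The share of probes past a ratio of 2 that were higher was 51.5% with AZA in MDS-L, 43.6% in MDS-L/CDA, 43.4% for the lines with vehicle, 52.4% for the lines with AZA and 42.4% for the difference. For MDS-L, the lines with vehicle and the difference, median scaling gave 10.5%, 3.08% and 7.78%, and no filter 66.6%, 74.9% and 62.1%. For all but MDS-L, in the order above, no scaling gave 27.1%, 7.39%, 7.57% and 57.9%. For all but MDS-L/CDA, detected probes gave 69.6%, 32.2%, 23.7% and 60.6%. For MDS-L/CDA and the lines with vehicle and with AZA, normexp gave 24.9%, 11.8% and 21.7%. Spike-in scaling gave 64.0% for MDS-L and 53.4% for the difference, and a ratio of 1.5 gave 65.0% for the lines with AZA. The median of all probes moved by over 0.1 on the log2 scale under median scaling (-0.54 in MDS-L, -0.50 for the lines with vehicle and -0.49 for the difference) and with no scaling (-0.13, -0.34, -0.47 and 0.14 for all but MDS-L). It also moved with detected probes (0.18 in MDS-L, -0.22 for the lines with AZA and 0.17 for the difference), with spike-in scaling (0.13 in MDS-L and 0.10 for the difference), with quantile, value table and normexp for the lines with AZA (-0.14, -0.14 and -0.16) and without a filter (0.15, 0.40, 0.27 and 0.14 for all but MDS-L/CDA). Signal over background limits GATA1, TAL1 and KLF1 most, whose lowest signals were 0.507, 0.971 and 0.906.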
